A study of Mus musculus with 2 samples.

Results

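Ttr, Gc, Edn3, C8b, Wnk3, Pappa2, Vwde and Dapl1 are 8 of the 33038 genes listed in either of 2 single-cell libraries of mouse pancreatic islets. They were put together under the heading of secreted and other genes of alpha cells, the islet cells that make glucagon. All 8 have a row in both libraries. They were picked because of their levels across cells grouped by hormone and by the amount of glucagon RNA in a cell, so those levels are described below with no test. The islets came from C57BL/6J mice aged 8 weeks that the labels call control, and no treatment or transgene is named for them. RevGel-seq, the method used, couples each cell to a barcoded bead and holds the pairs apart in a reversible gel before lysis. Library 1 and library 2 are technical replicates of 1 islet preparation with 10000 input cells each, so every SD and p-value below measures technical spread and no spread between animals.

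Levels were compared between groups of cells set by their hormone RNA. A cell was assigned to insulin (Ins1 and Ins2 added together), Gcg, Sst or Ppy where that hormone reached 1.0% of its UMIs (unique molecular identifiers, each counting 1 captured transcript). Gcg-only cells, the group that stands for alpha cells, numbered 182 in library 1 and 174 in library 2. There were 182 and 190 insulin-only cells, 35 and 23 Sst-only cells, and 54 and 68 Ppy-only cells. A further 65 and 86 cells held both Gcg and Ppy, and 91 and 92 cells reached the limit for no hormone. The level of a gene is given in CPM, here its UMIs per 1000000 UMIs of all genes other than the 5 hormone genes (Ins1, Ins2, Gcg, Sst and Ppy), summed over the cells of a group in a library. The libraries held 15931154 UMIs in 735 cells and 17440292 UMIs in 748 cells, and shared 0 barcodes. The alpha markers Irx1 and Irx2, homeobox genes, bear on the name of the group. Irx1 had 319 and 290 CPM in Gcg-only cells, 1.11 and 3.79 in insulin-only cells and 1.72 and 4.10 in Ppy-only cells. Irx2 had 286 and 301 CPM in Gcg-only cells, 9.23 and 14.7 in insulin-only cells and 25.8 and 38.1 in Ppy-only cells. Slc38a5 and Pou3f4 were also highest in Gcg-only cells, whereas Sphkap in insulin-only cells spanned 331 to 343 against 341 to 377 in Gcg-only cells.

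Most of the 8 genes are better known from other organs. Transthyretin (Ttr) carries thyroxine and, through retinol-binding protein, vitamin A in blood, and the vitamin D-binding protein (Gc) carries vitamin D metabolites; the liver is the usual source of both. Endothelin 3 (Edn3) is a secreted peptide ligand of endothelin receptors, C8b encodes a chain of complement component 8 of the membrane attack complex, and pappalysin 2 (Pappa2) is a secreted protease that cleaves insulin-like growth factor binding proteins. Vwde encodes a protein with von Willebrand factor D and EGF domains, Wnk3 a kinase that regulates cation-chloride cotransporters, and Dapl1 a small protein related to death-associated protein.

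The DNA just before the start of a gene was looked at to see whether the genes share short motifs known for islet and liver factors. RefSeq windows of 250 bases before the start were at hand for 7 of the 8 genes, all but Ttr. Both strands were searched for 5 sets of letters, and no matches overlapped each other. The core of the site that MAF proteins bind was searched as TGCTGA. The site of forkhead proteins such as FOXA was searched in a first form, TGTTTAC. A second form of that forkhead site, found in other promoters, was TGTTTGC. The core of an HNF1 site was GTTAAT, and the TATA box was searched under the letters TATAAA. The 4 windows printed stand for the main patterns of level described below. C8b and Edn3 were highest in Gcg-only cells, Gc was also high in Sst and Ppy cells, and Dapl1 was as high in insulin-only cells. Capitals mark the matches, read as they stand or as their reverse complement.
C8b (GRCm38.p6, chr4:104766067-104766316, + strand): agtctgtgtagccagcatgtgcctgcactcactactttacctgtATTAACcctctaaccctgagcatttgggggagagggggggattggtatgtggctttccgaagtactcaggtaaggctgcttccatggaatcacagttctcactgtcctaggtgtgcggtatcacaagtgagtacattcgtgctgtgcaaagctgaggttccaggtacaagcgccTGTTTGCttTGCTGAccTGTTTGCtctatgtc
Edn3 (GRCm38.p6, chr2:174760369-174760618, + strand): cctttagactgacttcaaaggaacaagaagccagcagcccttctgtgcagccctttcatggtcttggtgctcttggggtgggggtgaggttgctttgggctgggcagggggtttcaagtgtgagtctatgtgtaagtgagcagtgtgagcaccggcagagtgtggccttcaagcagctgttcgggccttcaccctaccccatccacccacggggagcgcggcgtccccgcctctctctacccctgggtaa
Gc (GRCm38.p6, chr5:89457899-89458148, - strand): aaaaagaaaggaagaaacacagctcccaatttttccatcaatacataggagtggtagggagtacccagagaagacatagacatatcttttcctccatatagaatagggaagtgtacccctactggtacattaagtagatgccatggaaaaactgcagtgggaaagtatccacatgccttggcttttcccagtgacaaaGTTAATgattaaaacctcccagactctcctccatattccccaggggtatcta
Dapl1 (GRCm38.p6, chr2:59484403-59484652, + strand): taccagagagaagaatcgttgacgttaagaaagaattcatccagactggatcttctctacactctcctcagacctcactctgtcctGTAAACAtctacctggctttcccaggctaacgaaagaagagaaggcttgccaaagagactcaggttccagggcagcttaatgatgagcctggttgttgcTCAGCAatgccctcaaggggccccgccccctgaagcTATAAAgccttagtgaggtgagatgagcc

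The 250 bases before C8b held 4 matches, with positions counted from the annotated start. A MAF core at -23 lay between the second forkhead form at -32 and -15, and an HNF1 core lay at -206 on the opposite strand. Dapl1 held a TATA box at -29, a MAF core at -65 on the opposite strand and the first forkhead form at -164 on the opposite strand. Gc had an HNF1 core at -52. Edn3 and Pappa2 held none of the letters searched, Wnk3 only a TATA box at -33, and Vwde only an HNF1 core at -192. The Pappa2 window (chr1:158958176-158958425) lay inside the limits of the gene given below, chr1:158711727-158980490 on the minus strand. The bases before the start set by those limits were therefore not searched for Pappa2. Of all 32851 windows of that length, 16.1% held the MAF core, 3.17% the first and 4.30% the second forkhead form, 6.43% the HNF1 core and 12.4% the TATA box. The HNF1 core was found in 3 of the 7 windows (C8b, Gc and Vwde) and no motif in more. A match of this kind is a description of letters only.

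Of the 8 genes, 6 were highest in Gcg-only cells, in that both libraries exceeded both libraries of the insulin-only, Sst-only and Ppy-only cells. These were Ttr, Edn3, C8b, Wnk3, Pappa2 and Vwde. Among the 8183 genes with at least 20 CPM in the Gcg-only cells, 9.41% met the same condition, and since the 8 genes were picked on this contrast nothing is read from their share. The other two, Gc and Dapl1, did not keep to alpha cells.

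**Figure D1:**
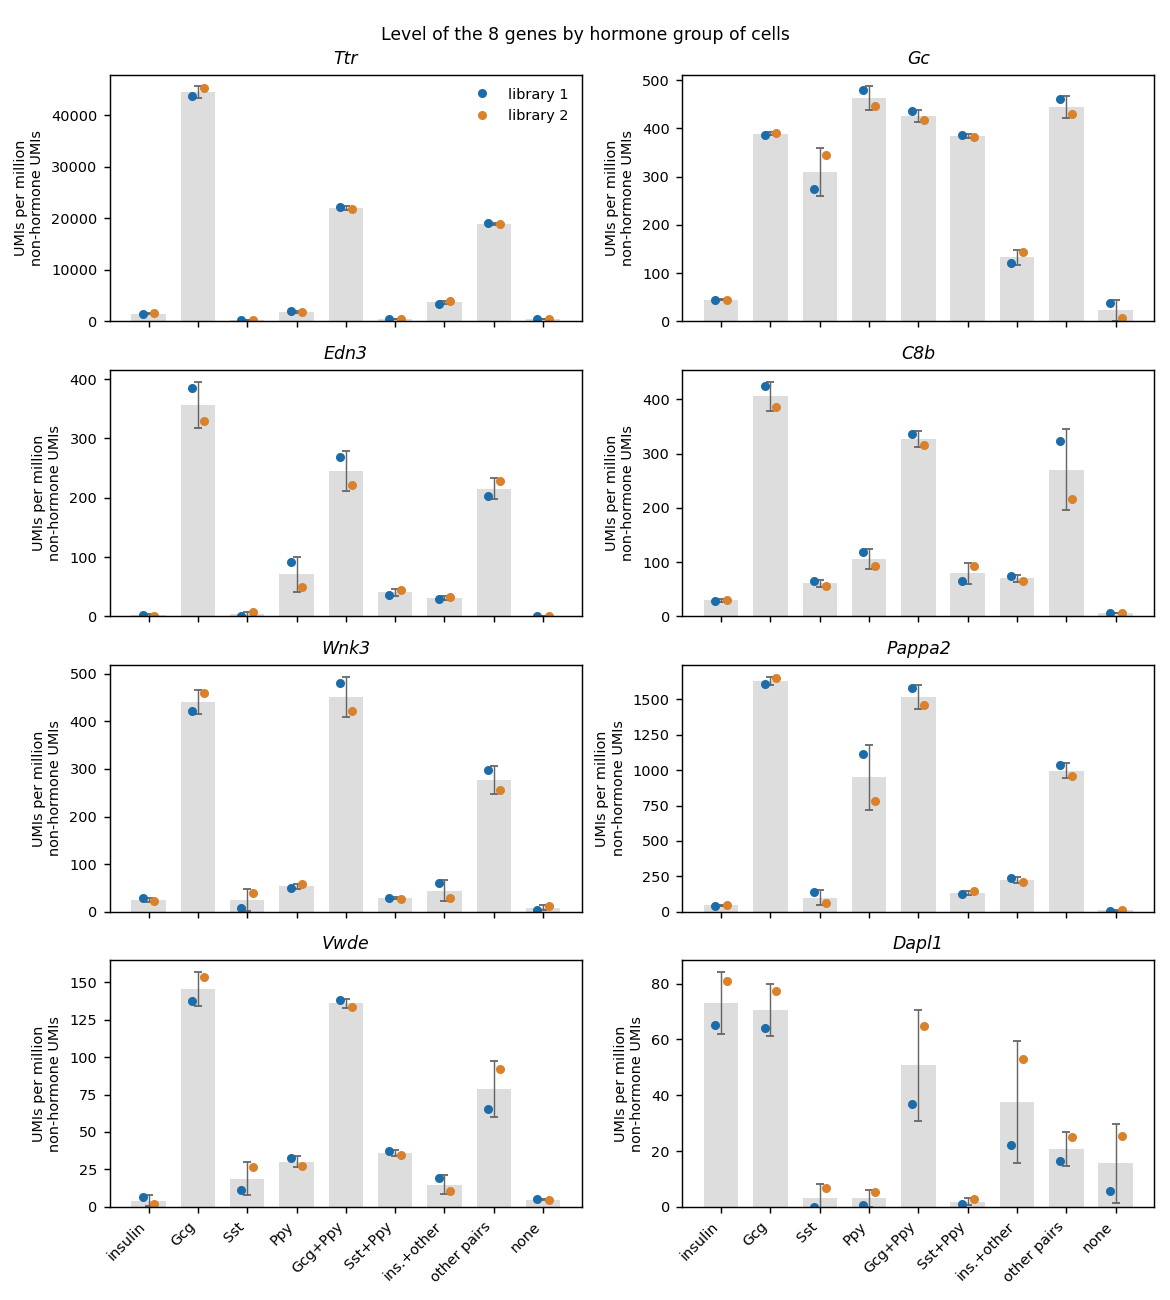
Level of each gene (CPM without hormone genes, linear axes that start at 0 and differ between panels) in 9 groups of cells by hormone. Points are the 2 libraries, bars their mean and whiskers the SD, and ins.+other stands for insulin with another hormone. Ttr, Edn3, C8b, Wnk3, Pappa2 and Vwde stand highest among the single-hormone groups in Gcg-only cells, while Gc is also high in the Sst and Ppy groups and Dapl1 in insulin-only cells.

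Ttr, the thyroxine carrier, reached 43701 CPM in the Gcg-only cells of library 1 and 45273 in those of library 2. Insulin-only cells held 1444 and 1503, Ppy-only cells 2002 and 1713, and Sst-only cells 290 and 248. Gcg-only cells thus stood 30.2 ± 0.0976-fold above insulin-only cells (SD, n = 2 libraries), 24.1 ± 3.25-fold above Ppy-only cells and 167 ± 22.5-fold above Sst-only cells. A median of 2.82% and 2.69% of all UMIs of a Gcg-only cell came from this 1 gene. Its level varied widely from cell to cell even so. In library 1 the 182 Gcg-only cells ran from 2336 to 143075 CPM with a median of 38684, and in library 2 the 174 cells ran from 1848 to 186669 with a median of 35666.

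A small amount of Ttr RNA was also found in cells with no hormone. A Ttr UMI was seen in 85.7% and 88.0% of the cells with no hormone, where the level was 476 and 480 CPM, so a UMI of Ttr does not mark a cell. Cells outside the Gcg groups still held some Gcg UMIs, and Ttr was counted against them. Those cells were set apart by a Gcg share under 1.0%, so a high ratio of Ttr to Gcg follows in part from that rule. That ratio was 13.7 and 13.4 Ttr UMIs per 100 Gcg UMIs in Gcg-only cells. In insulin-only cells it was 112 and 120, in Ppy-only cells 107 and 155, and in cells with no hormone 52.7 and 72.4. Sst-only cells had the lowest ratio among the groups below the limit for Gcg, 21.7 and 22.4. In each of these groups Ttr was more abundant relative to Gcg than in the Gcg-only cells. Free RNA as a source of that Ttr was not tested. In cells with no hormone, 39.4% and 72.2% of the Ttr UMIs lay in the 3 cells that held most.

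Ttr was also set against the share of Gcg in single cells. Groups were set by hormone share, so that they part along the Gcg axis follows from the rule. In Ttr they overlapped, as Gcg-only cells began at 2336 and 1848 CPM and insulin-only cells reached 6325 and 6375. Few cells had a Gcg share near the limit of 1.0%: in library 1 the highest share outside was 0.968% and the lowest inside 1.38%, and in library 2 the values were 0.453% and 1.19%. Between 1.0% and the double of it lay 2 and 4 cells, of 265 and 279 with Gcg. The share of Ppy showed no such gap. In library 1 the highest Ppy share outside was 0.957% and the lowest inside 1.004%, with 52 cells between 0.5% and 1.0% and 57 between 1.0% and the double of it, of 220 with Ppy. In library 2 the values were 0.992% and 1.003%, with 31 and 49 cells, of 253. Which cells counted as Gcg+Ppy or Ppy-only therefore depended on the limit.

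**Figure D2:**
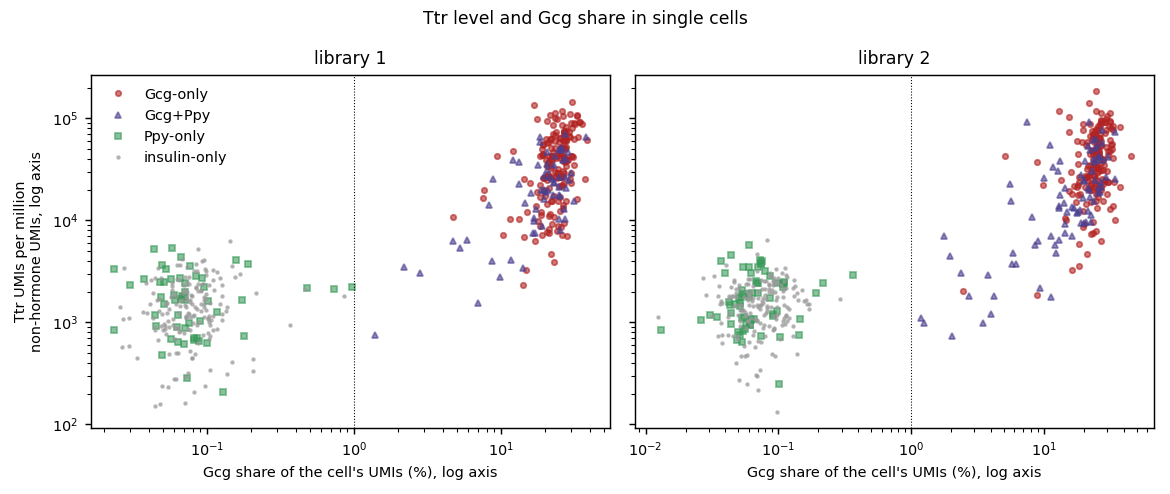
Ttr level of single cells (CPM without hormone genes, log axis) against the Gcg share of all UMIs of the cell (%, log axis), for library 1 and library 2. The dotted line is the limit of 1.0%, and all Gcg-only, Gcg+Ppy, Ppy-only and insulin-only cells are drawn because none had 0 UMIs of either gene. Gcg-only cells cover a wide range of Ttr at similar Gcg shares, and Gcg+Ppy cells reach down to lower values of both.

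Gc, the vitamin D carrier, was found in Gcg, Ppy and Sst cells alike. Its level was 387 and 391 CPM in Gcg-only cells, 480 and 446 in Ppy-only cells, 275 and 345 in Sst-only cells and 45.03 and 44.2 in insulin-only cells. Ppy-only cells were highest in both libraries and did not overlap with Gcg-only cells, whose level was 0.841 ± 0.0494 of theirs. Against insulin-only cells the Gcg-only level was 8.72 ± 0.169-fold higher. Gc was detected in 91.2% and 92.0% of Gcg-only cells, in 92.6% and 100% of Ppy-only cells, and in 24.2% and 22.6% of insulin-only cells. The median depth of a cell was 16414 and 19534 UMIs in Gcg-only, 28785 and 30340 in Ppy-only and 19642 and 17170 in insulin-only cells. Among the single-hormone groups Gc was thus lowest in insulin-only cells without being highest in Gcg-only cells, and in cells with no hormone it had 37.7 and 7.41 CPM.

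Edn3, the endothelin peptide, had 384 and 329 CPM in Gcg-only cells. In Ppy-only cells it had 91.1 and 50.4, and its Gcg-only level was 5.37 ± 1.63-fold higher. Insulin-only cells held only 8 UMIs in library 1 and 1 UMI in library 2, and Sst-only cells 0 and 2. The 0 UMIs in Sst-only cells allow a level of up to 6.59 CPM (3 counts). Set against Gcg, the 8 UMIs and 1 UMI in insulin-only cells came to 2.28 and 0.337 per 1000 Gcg UMIs, on either side of the 1.21 and 0.977 in Gcg-only cells. Edn3 was seen in 78.0% and 77.0% of Gcg-only cells.

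C8b, the complement chain, had 425 and 386 CPM in Gcg-only cells, and a UMI was found in 96.2% and 96.6% of them. Ppy-only cells held 119 and 92.1, Sst-only cells 65.9 and 57.0, and insulin-only cells 28.0 and 31.2. The Gcg-only level was 13.8 ± 1.96-fold above insulin-only and 3.89 ± 0.430-fold above Ppy-only cells, with no overlap. In insulin-only cells there were 21.7 and 24.97 C8b UMIs per 1000 Gcg UMIs, against 1.33 and 1.15 in Gcg-only cells.

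Pappa2, the protease of binding proteins, was shared with Ppy cells. It had 1612 and 1652 CPM in Gcg-only cells and 1113 and 785 in Ppy-only cells, a difference of 1.78 ± 0.465-fold. Insulin-only cells held 43.6 and 48.0, which put the Gcg-only level 35.7 ± 1.83-fold above them. In Sst-only cells it had 136 and 60.3, with 59.7% and 66.7% of those UMIs in the 3 cells that held most. Every Gcg-only cell of both libraries had a Pappa2 UMI. The gene shares its strand with another annotated gene inside its limits (1600012P17Rik), so a part of its counts could belong to either.

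Wnk3, the kinase, had 422 and 459 CPM in Gcg-only cells. It had 49.8 and 57.5 in Ppy-only cells, 28.0 and 21.9 in insulin-only cells and 8.79 and 40.2 in Sst-only cells, the latter from 4 and 12 UMIs. Gcg-only cells were 18.01 ± 4.17-fold above insulin-only and 8.23 ± 0.344-fold above Ppy-only cells. Genes on the opposite strand overlap Wnk3 (Rpl21-ps15, Gm26441 and A230072E10Rik), and the sources used here do not say whether strand was used in counting.

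Vwde was the rarest of the 6 genes that were highest in Gcg-only cells by UMIs, with 360 and 433 UMIs in those cells. Its level there was 137 and 153 CPM, and a UMI was found in 54.9% and 59.8% of the cells. Ppy-only cells held 32.7 and 27.6, so that Gcg-only cells were 4.88 ± 0.966-fold higher. Insulin-only cells held 18 and 4 UMIs, of which 66.7% and 100% lay in the 3 cells that held most.

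Dapl1 was as high in insulin-only cells as in Gcg-only cells. Its level was 65.3 and 80.9 CPM in insulin-only and 64.0 and 77.2 in Gcg-only cells, so the groups overlapped and the ratio was 0.967 ± 0.0175. It was nearly missing from Sst-only cells, with 0 and 2 UMIs, and from Ppy-only cells, with 1 and 9 UMIs. A Dapl1 UMI was seen in 50 of 182 and 50 of 174 Gcg-only cells (27.5%, 95% exact interval 21.1 to 34.6%, and 28.7%, 22.1 to 36.1%). In insulin-only cells the shares were 36.8% (29.8 to 44.3%) and 37.4% (30.5 to 44.7%), and in cells with no hormone 2.20% and 7.61%. Intervals cover counting error only. Relative to Gcg, insulin-only cells had 50.5 Dapl1 UMIs per 1000 Gcg UMIs in library 1 against 0.201 in Gcg-only cells. The name alpha gene therefore goes against the data for Dapl1, which was found in both alpha and beta cells, and in part for Gc.

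Cells that held both Gcg and Ppy were also compared with Gcg-only cells. Ttr fell to 22265 and 21774 CPM in them, so that Gcg-only cells were 2.02 ± 0.0823-fold higher. Edn3 had 269 and 221, below both Gcg-only values by 1.46 ± 0.0411-fold, and C8b had 337 and 316, below by 1.24 ± 0.0276-fold. Pappa2 had 1578 and 1459 and lay below both Gcg-only values as well, though by only 1.08 ± 0.0785-fold. Gc, with 436 and 417, lay above both Gcg-only values. Wnk3 with 481 and 422, Vwde with 138 and 134 and Dapl1 with 36.7 and 64.7 did not separate from Gcg-only cells on this count. With a hormone limit of 5% in place of 1.0%, the log2 ratio of Gcg+Ppy to Gcg-only cells moved from -0.089 to -1.07 for Vwde and from -0.44 to -1.12 for Dapl1. Higher in Gcg-only cells were thus 4 of the 8 genes, against 20% of 8001 genes. The median over the 8 genes of the log2 ratio of Gcg+Ppy to Gcg-only cells was -0.19. With called doublets removed the median was -0.18.

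Within Gcg-only cells the genes did not follow glucagon alike. The cells of each library were ordered by the Gcg share of their UMIs and cut into 3 equal parts, called the lower, middle and upper tertile. Median Gcg share was 19.3% and 19.6% in the lower and 27.8% and 29.4% in the upper tertile. In the upper tertile 6 of the 8 genes were higher than in the lower in both libraries with no overlap (Ttr, Gc, C8b, Pappa2, Vwde and Dapl1), against 15.5% of 8010 genes. Since the split belongs to the rule by which the genes were picked, the count is a description.

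Dapl1 had the largest ratio of upper to lower tertile among the 8. It had 35.6 and 38.8 CPM in the lower and 102 and 134 in the upper tertile, which is 3.15 ± 0.417-fold. A UMI of it was found in 10 of 61 and 5 of 58 cells of the lower tertile and in 22 of 60 and 27 of 58 cells of the upper. Thinned to 4000 UMIs per cell, these shares were 8.20% and 5.17% against 15.0% and 17.2%. With the 3 cells with most Dapl1 left out of each tertile of each library, the log2 ratio was 2.17, against 1.43 with all cells. This rise is no gauge of outlying cells, because the lower tertile had only 10 and 5 cells with a UMI to lose.

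Ttr rose from 29274 and 31412 CPM in the lower to 57061 and 55093 in the upper tertile, which is 1.85 ± 0.138-fold. Gc went from 299 and 258 to 488 and 440, or 1.67 ± 0.0481-fold. Pappa2 went from 1296 and 1245 to 1783 and 1810, or 1.41 ± 0.0549-fold. All 3 genes were higher in the upper than in the lower tertile of both libraries. In the middle tertile Gc had 367 and 468 and Pappa2 1738 and 1880, so that both were highest there in library 2. C8b (389 and 346 against 446 and 434) and Vwde (140 and 125 against 155 and 164) differed by less, 1.20 ± 0.0764-fold and 1.21 ± 0.144-fold.

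Edn3 was lower in the upper than in the lower tertile, mostly in library 1. It had 424 and 365 CPM in the lower, 486 and 291 in the middle and 251 and 332 in the upper tertile. Neither library fell at each step. The ratio of upper to lower was 0.751 ± 0.225, whose SD is wide because library 1 fell by more than library 2. Wnk3 had 435 and 439 in the lower and 416 and 472 in the upper tertile, and the tertiles overlapped. The middle tertile, with 417 and 464, lay in the same range.

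**Figure D3:**
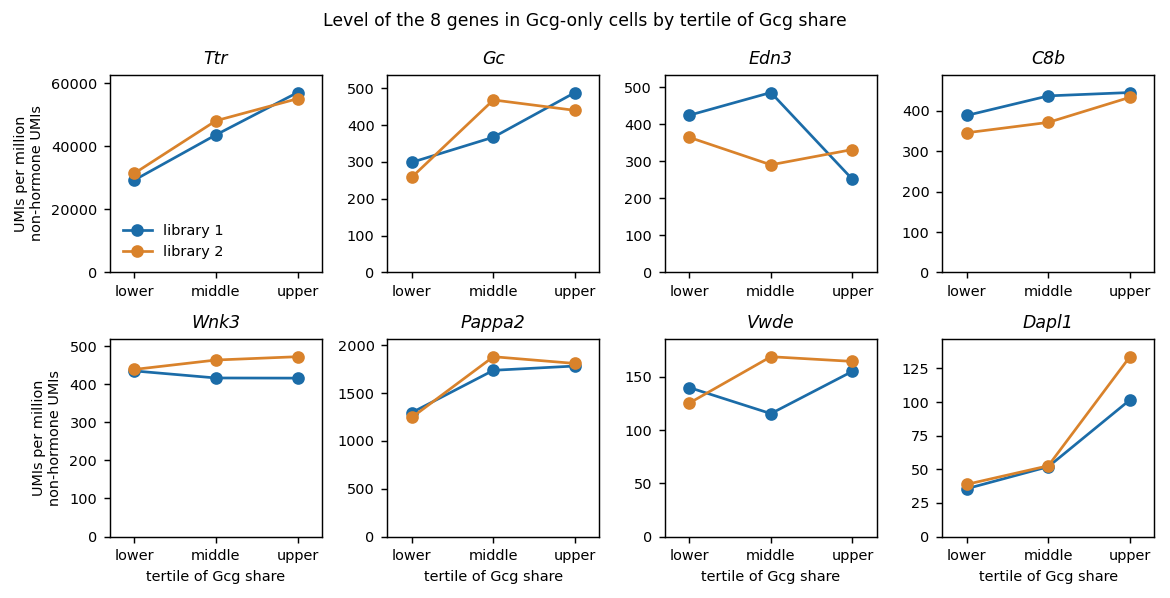
Level of each gene (CPM without hormone genes, axes start at 0) in Gcg-only cells of the lower, middle and upper tertile of Gcg share, with 1 line per library. Ttr, C8b and Dapl1 climb at each step in both libraries, Gc and Pappa2 end above where they began but are highest in the middle tertile of library 2, Wnk3 is level and Edn3 ends lower than it began.

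Depth moved along with the Gcg share. Median UMIs per cell were 15241 and 15362 in the lower and 20053 and 21204 in the upper tertile. Without the hormone genes the medians differed by less, with 12506 and 12568 in the lower and 14163 and 14849 in the upper tertile. Cells were also cut into tertiles of depth, taken as non-hormone UMIs, in place of Gcg share. Then 3 of the 8 genes (Ttr, Gc and Dapl1) were higher in the upper tertile without overlap. The log2 ratio of Ttr was 0.17 in place of 0.89. Rank correlations were also taken over Gcg-only cells. Between the level of Ttr and the Gcg share Spearman's rho was 0.42 over 182 cells and 0.31 over 174 cells, between Ttr and Gc it was 0.32 and 0.36, and between Ttr and Dapl1 0.33 and 0.28. Gc and Edn3 had rho of -0.26 and -0.19. Between Edn3 and the Gcg share rho was -0.16 and -0.0027. The cells of a library share its depth and preparation, and these values are given as descriptions.

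Gcg-only cells with a Dapl1 UMI had 57043 and 58523 CPM of Ttr, and those without had 36997 and 39238. Gc was 465 and 516 with and 349 and 334 without, whereas Edn3 was 323 and 308 with and 415 and 339 without. Cells with a Dapl1 UMI were also deeper, with a median of 22040 and 21483 UMIs against 14954 and 18248, and a part of depth in these differences was not tested.

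The question of whether the genes followed insulin in the same way could be tested, because the genes had not been picked on it. Insulin-only cells were cut into tertiles of insulin share, with the comparison chosen after the data had been seen. Counts were summed per tertile and library and tested with edgeR's quasi-likelihood test (Benjamini-Hochberg adjustment over all 10351 genes tested, 3 residual degrees of freedom). Of all genes, 536 were higher (5.18%) and 390 lower (3.77%) in the upper tertile. The test could be made for 6 of the 8 genes, as Edn3 and Vwde had too few counts in beta cells. Ttr, Dapl1 and Pappa2 were called higher, and Gc, C8b and Wnk3 were not called.

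Dapl1 had 34.3 and 53.6 CPM in the lower and 102 and 112 in the upper tertile of insulin share (log2 fold change 1.39, SE 0.25, edgeR adjusted p = 0.000481). Ttr had 1181 and 1221 in the lower and 1802 and 1807 in the upper tertile (log2 fold change 0.69, SE 0.11, edgeR adjusted p = 8.32e-05). Pappa2 had 28.2 and 39.5 against 95.5 and 53.4 (log2 fold change 1.27, SE 0.33, edgeR adjusted p = 0.0134). The groups did not overlap for any of the 3, but the rise of Pappa2 rested on library 1, and its adjusted p was 0.322 without the upper tertile of that library. Gc had 75.7 and 41.5 against 27.3 and 29.5 (log2 fold change -0.96, SE 0.39, edgeR adjusted p = 0.126).

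The calls depended on what the counts were scaled to. Cells of the upper tertile held fewer UMIs other than hormones, with a median of 8958 and 7448 against 15484 and 13241 in the lower. Scaled to the number of cells, which moved the median log2 fold change of all genes from -0.03 to -0.92, Ttr had a log2 fold change of -0.21 (edgeR adjusted p = 0.371), Dapl1 0.50 (0.164) and Pappa2 0.41 (0.331). Scaled to all UMIs, with a median of -0.64, only Dapl1 of these 3 was still called (0.77, edgeR adjusted p = 0.0187). In UMIs per cell Ttr had 22.0 and 18.8 in the lower and 19.8 and 15.6 in the upper tertile. Gcg moved beside Ttr in these cells, from 1101 and 1046 CPM to 1818 and 1798. Free RNA as a source of these Gcg UMIs, and its part in the result, was not tested.

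**Figure D4:**
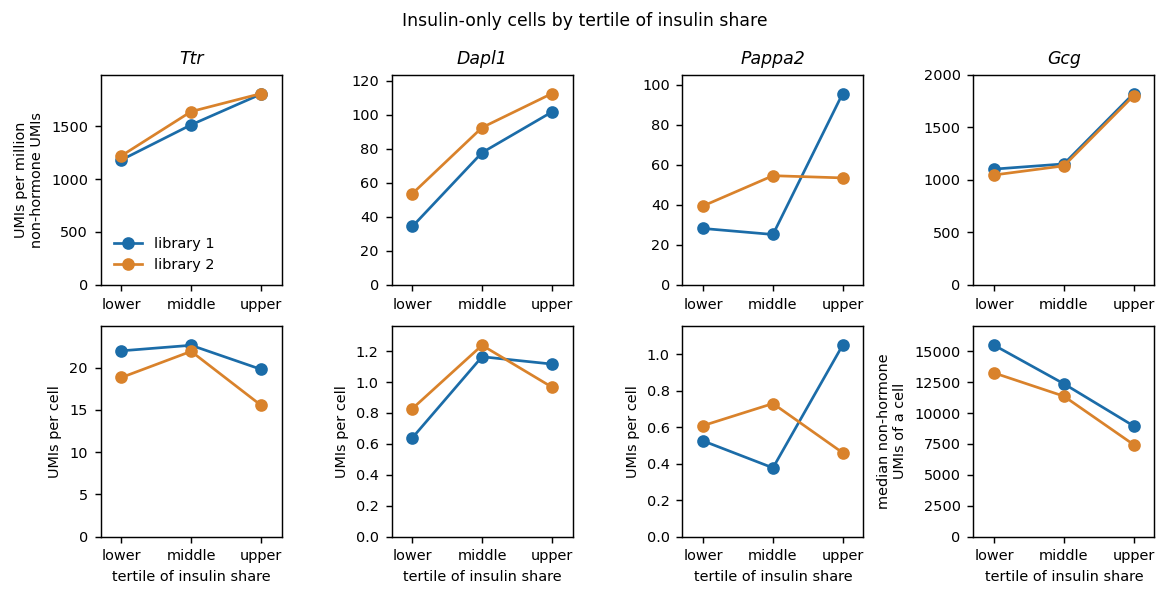
Insulin-only cells by tertile of insulin share, with 1 line per library and axes from 0. The upper row gives the level of Ttr, Dapl1, Pappa2 and Gcg (CPM without hormone genes), and the lower row UMIs per cell of the first 3 genes and, at the right, the median number of non-hormone UMIs of a cell. Levels of Ttr, Dapl1 and Gcg climb, while UMIs per cell of Ttr end slightly lower and non-hormone UMIs fall.

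The other genes of the pathways in which the 8 genes act were drawn up in 6 lists, for what they do. Their counts in Gcg-only cells were compared with insulin-only, Sst-only and Ppy-only cells in 1 edgeR fit over 8 sums and 13977 genes (4 residual degrees of freedom). Of the 51 list genes tested, 27 passed an adjusted p of 0.05 against insulin-only cells, 16 higher and 11 lower in Gcg-only cells. Of all genes 35.3% passed, 17.3% higher and 17.9% lower. Against Sst-only cells 21 list genes passed, 8 higher and 13 lower, where 16.8% of all genes passed, 8.08% higher and 8.7% lower. Against Ppy-only cells 18 passed, 7 higher and 11 lower, where 17.2% of all genes passed, 8.35% higher and 8.84% lower.

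Ttr circulates bound to retinol-binding protein, and Rbp4, which is also one of the delta markers used here, was the list gene with the smallest adjusted p against insulin-only cells. It had 1237 and 1204 CPM in Gcg-only, 228 and 313 in insulin-only, 345 and 345 in Ppy-only and 6355 and 6041 in Sst-only cells. Gcg-only cells were thus higher than insulin-only cells (log2 fold change 2.13, SE 0.11, edgeR adjusted p = 7.31e-15) and lower than Sst-only cells (-2.24, SE 0.11, edgeR adjusted p = 4.34e-15). In Sst-only cells, where Rbp4 was highest, Ttr was lowest among the single-hormone groups. Of the 9 genes tested for retinol, thyroid hormone and vitamin D, 3 were higher in Gcg-only than in insulin-only cells (Rbp4, Thra and Rxra) and 2 lower (Dio1 and Vdr). Their median log2 fold change was 0.43 against 0.02 over all genes.

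Dio1, the deiodinase that acts on thyroxine, had 14.5 and 15.2 CPM in Gcg-only cells and 87.1 and 104 in insulin-only cells (log2 fold change -2.72, SE 0.19, edgeR adjusted p = 3.25e-12). Vdr, the vitamin D receptor, had 161 and 147 in Gcg-only and 305 and 302 in insulin-only cells (-1.02, SE 0.11, edgeR adjusted p = 1.03e-08), although it was higher in Gcg-only than in Sst-only and Ppy-only cells. Its partner receptor Rxra had 110 and 113 against 40.6 and 46.7 in insulin-only cells (1.32, SE 0.15, edgeR adjusted p = 3.11e-08). The thyroid hormone receptor Thra had 106 and 124 against 66.4 and 62.3 in insulin-only cells (0.80, SE 0.14, edgeR adjusted p = 6.5e-05). Thra was not called against Sst-only cells (112 and 171 CPM, edgeR adjusted p = 0.701) or Ppy-only cells (120 and 119, edgeR adjusted p = 0.904). Rxra was higher than in Sst-only cells (edgeR adjusted p = 8.71e-06) but not called against Ppy-only cells (83.4 and 91.5 CPM, edgeR adjusted p = 0.0928).

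Few other plasma protein genes of the liver were measurable beside Ttr and Gc. Of 24 such genes, 4 had enough counts to test, and Apoa2 and Trf (transferrin) were higher in Gcg-only than in insulin-only cells, with 0 lower. Against Sst-only cells Apoa2 was higher (edgeR adjusted p = 0.00144) and 1 gene was lower. That gene, Ambp, was named after its values were seen, and had 64.4 and 54.2 CPM in Gcg-only against 257 and 315 in Sst-only cells, a log2 difference of -2.14 (edgeR adjusted p = 1.48e-10). Against Ppy-only cells edgeR and DESeq2 both called 0 of the 4, with an unadjusted p under 0.05 for 3 and 1 of them, and the lowest edgeR adjusted p was 0.0706, for Apoa2. Apoa2 had 28.6 and 22.0 CPM in Gcg-only against 6.64 and 6.74 in insulin-only cells, with an edgeR adjusted p of 8.57e-05. Trf had 9.52 and 10.6 against 1.85 and 4.21 (edgeR adjusted p = 0.0158), and lost its call without either library of the Gcg-only cells or library 1 of the insulin-only cells. Alb, the albumin gene, had 1.14 and 0.35 CPM in Gcg-only cells, and 5 hepatocyte markers together had 4.95 and 8.85.

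In the endothelin system the converting enzyme Ece1, which cuts the precursors of endothelins, was lower in Gcg-only cells. It had 272 and 283 CPM against 553 and 575 in insulin-only cells (log2 fold change -1.07, SE 0.09, edgeR adjusted p = 3.03e-10) and against 743 and 744 in Sst-only cells (-1.31, SE 0.11, edgeR adjusted p = 2.55e-10). The receptor Ednra had 5.71 and 4.25 CPM in Gcg-only cells and 0.37 and 0.42 in insulin-only cells. Against insulin-only cells it passed the test (edgeR adjusted p = 0.00461) and lost its call without library 1 of either group. Ednra was not called against Sst-only cells (8.79 and 3.35 CPM, edgeR adjusted p = 0.884) or Ppy-only cells (1.72 and 2.35, edgeR adjusted p = 0.331).

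Among complement genes 3 of the 11 tested were higher in Gcg-only than in insulin-only cells and 4 lower. Clu, an inhibitor of the membrane attack complex to which C8b belongs, had 238 and 221 CPM in Gcg-only and 145 and 133 in insulin-only cells (log2 fold change 0.68, SE 0.11, edgeR adjusted p = 9.89e-06), yet 1195 and 1043 in Sst-only and 663 and 691 in Ppy-only cells. Cfi, the protease complement factor I, had 15.2 and 14.2 in Gcg-only cells and 0.37 and 0 in insulin-only cells (edgeR adjusted p = 1.49e-07). Sst-only cells held 28.6 and 16.8 CPM of Cfi and Ppy-only cells 18.05 and 16.4, all above the Gcg-only values. Cfi was not called against Sst-only cells (edgeR adjusted p = 0.462) or Ppy-only cells (edgeR adjusted p = 0.782). C3 had 1.14 and 0.35 in Gcg-only against 7.38 and 10.1 in insulin-only cells (edgeR adjusted p = 0.000703). C1qc, a gene of macrophages, had 0.37 and 27.8 in insulin-only cells, where leukocyte markers summed to 94.5 and 144 against 10.7 and 12.4 in Gcg-only cells, and lost its call without library 2 of either group.

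Wnk3 had relatives that moved with it against insulin-only cells. Wnk1 had 577 and 576 CPM in Gcg-only and 387 and 385 in insulin-only cells (log2 fold change 0.54, SE 0.11, edgeR adjusted p = 0.000225). Wnk2 had 84.2 and 74.4 against 28.8 and 24.8 (1.51, SE 0.17, edgeR adjusted p = 2.75e-08), and Wnk4 142 and 142 against 90.1 and 107 (0.49, SE 0.13, edgeR adjusted p = 0.00481). Wnk4 kept its call in 7 of 11 other settings and lost it without library 2 of the Gcg-only cells or library 1 of the insulin-only cells. Against Ppy-only cells Wnk1 and Wnk2 were not called (edgeR adjusted p = 0.381 and 0.345), while Wnk4 was higher (edgeR adjusted p = 0.00297). Against Sst-only cells Wnk1 was not called (edgeR adjusted p = 0.398), while Wnk2 and Wnk4 were higher (edgeR adjusted p = 0.00779 and 5.15e-06). Slc12a7, a potassium-chloride cotransporter of the kind on which the kinases act, was lower in Gcg-only cells (14.1 and 10.6 against 80.1 and 75.4 in insulin-only cells, log2 fold change -2.69, SE 0.21, edgeR adjusted p = 2.45e-11). Cul3, part of the ligase that degrades these kinases, was not called in any of the 3 comparisons. In all, 4 of 15 genes were higher than in insulin-only cells and 1 lower.

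The substrates and partners of Pappa2 lie in the insulin-like growth factor axis, where 3 of 8 genes tested were higher than in insulin-only cells and 3 lower. Igfbp5, a substrate of pappalysin 2, had 7.62 and 70.5 CPM in Gcg-only cells and 4.43 and 4.21 in insulin-only cells. Its call (edgeR adjusted p = 0.000126) rested on library 2 and gave 0.542 without it, and endothelial markers summed to 44.6 and 140 in the same cells; their part was not tested. Igfbp7 had 339 and 275 in Gcg-only, 251 and 187 in insulin-only and 114 and 97.3 in Ppy-only cells, with its largest difference to the latter (log2 fold change 1.56, SE 0.15, edgeR adjusted p = 9.47e-09). Igfbp4 had 9.90 and 8.50 in Gcg-only cells and 1.11 and 0 in insulin-only cells (edgeR adjusted p = 0.000623). The receptor Igf1r was lower, with 97.9 and 105 against 230 and 226 (-1.21, SE 0.12, edgeR adjusted p = 3.83e-09), as was the carrier subunit Igfals with 8.00 and 9.21 against 36.2 and 39.2 (-2.16, SE 0.29, edgeR adjusted p = 6.53e-07).

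**Figure D5:**
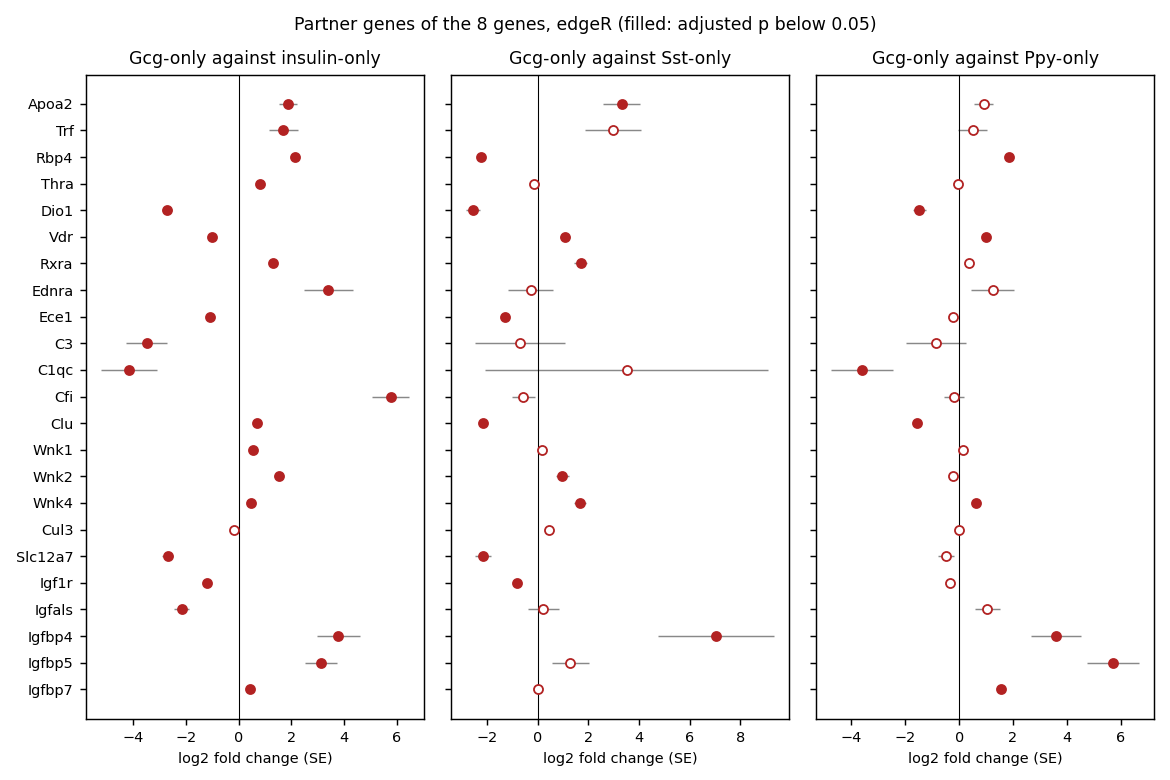
Log2 fold changes with SE of 23 genes from the 6 lists, Gcg-only cells against insulin-only, Sst-only and Ppy-only cells in the edgeR fit, with filled points past an adjusted p of 0.05. Fold changes of Cfi, Igfbp4, Ednra and C1qc depend on the prior count because a group lies at or near 0. Rbp4 and Clu are above insulin-only and below Sst-only cells, while Ece1, Slc12a7 and Igf1r lie below both.

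The genes whose profile was most like that of the 8 genes were sought over 18 sums (9 groups in 2 libraries) among 7651 genes. The measure was Pearson's r with the mean of the standardised log2 profiles, with 10 CPM added. The homeobox gene Irx2, one of the alpha markers, came first with r of 0.97, followed by Ptprd, Trim35 and Cryba2 with 0.96 each. Avpr1b, a vasopressin receptor, Igsf21, Tmsb15b1, Rnf130, Sfrp5 and Ndst4 had r of 0.93 to 0.94. The sums of a library share their preparation and the groups were chosen by hormone, so r is a description. Of the 8 genes themselves Wnk3, C8b and Edn3 lay closest to the mean profile with r of 0.97, and Dapl1 farthest with 0.42, followed by Gc with 0.72. Each of the 8 genes is a part of that mean, so its r is in part with itself. Taken singly, Ttr, Edn3 and Wnk3 were each most like Irx2, C8b most like Sfrp5 (0.98), Pappa2 most like A1cf (0.96) and Vwde most like Ptprd (0.95). Gc was most like Smarca1 (0.97), which had 506 and 535 CPM in Gcg-only and 458 and 512 in Ppy-only cells. Dapl1 was most like Maob (0.93), the monoamine oxidase B gene, with 144 and 135 in Gcg-only, 248 and 262 in insulin-only and 20.6 and 34.0 in Ppy-only cells.

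On GRCm38 the genes lie on separate chromosomes but for Edn3 (chr2:174760619-174784042, plus strand) and Dapl1 (chr2:59484653-59505020, plus strand), which are far apart. Gc lies at chr5:89417522-89457898 on the minus strand, C8b at chr4:104766317-104804548 on the plus strand, and Wnk3 at chrX:151198078-151320152 on the plus strand. Pappa2 lies at chr1:158711727-158980490 and Vwde at chr6:13156299-13224965, both on the minus strand. All are protein-coding, and no annotated gene overlaps Gc, Edn3, C8b, Vwde or Dapl1.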

How the data were processed

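Single-cell libraries of dissociated islets were deposited as 1 table per library. The authors' Cytonaut pipeline and UMI-tools took barcodes above a knee in depth, aligned reads to exons of GRCm38, deduplicated them and deposited whole-number UMI counts per gene and cell. Intronic reads and shallow barcodes therefore add nothing to these counts. Levels were computed in Python 3.11.15 with hormone genes left out of the total, because hormones take a different share of each group. Doublets were called with Scrublet (8 per library, scanpy 1.11.5) and kept. Counts were summed per group and library, and the edgeR quasi-likelihood test (version 4.0.16, R 4.3.3) was run on the sums after filterByExpr and TMM scaling, adjusted by Benjamini-Hochberg over all genes at a threshold of 0.05, with DESeq2 1.42.0 as an alternative. On simulated data with 8606 genes, 91% (insulin-only), 55% (Sst-only) and 90% (Ppy-only) of genes changed by 2-fold were recovered. The members and lists were chosen with earlier results of these data known. From each list the text names up to 3 genes with the largest called fold change against insulin-only cells and those of at least 100 CPM in Gcg-only cells, while a few listed and marker genes are not reported here. The islet tables came with no separate animals, and the sums of a library share only its preparation: deviations of the libraries from the group means correlated at -0.10 to 0.14 between groups. Coordinates and overlaps came from GENCODE M21, and promoter windows from a RefSeq table on GRCm38.p6.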

Additional observations from a re-analysis of the deposited data

How the results depend on the processing

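The 2 libraries are 1 preparation, so no value covers a difference between animals, and leaving out a whole library leaves edgeR with no residual degrees of freedom. The count of 6 genes highest in Gcg-only cells was 6 or 7 under the 9 other settings tried. The count of 6 genes higher in the upper tertile of Gcg share was 4 with the total of all UMIs, and 6 to 7 with 1 library. Cells cut by depth in place of Gcg share gave 3 genes, which compares deep with shallow cells. The median log2 ratio of Gcg+Ppy to Gcg-only cells, -0.19, became -0.28 and -0.34 at a hormone limit of 2% and 5%. It was -0.23 with all UMIs in the total, and -0.28 without the 3 cells of each group with most UMIs of each gene. The log2 ratio of Gcg+Ppy to Gcg-only cells for Gc turned to -0.021 at a limit of 5%. That of upper to lower tertile of Gcg share for Vwde turned to -0.0085 in cells thinned to 4000 UMIs. Between the upper and lower tertile of depth the log2 ratio of C8b was -0.21, which is not a ratio by Gcg share. The Dapl1 log2 ratio of Gcg-only to insulin-only cells was 0.025 and 0.022 at limits of 0.5% and 5%, 0.22 with all UMIs and 0.044 in thinned cells, against a value just below 0 in the text. The causes were not tested. DESeq2 called 3189 genes against insulin-only and 1346 against Ppy-only cells, where edgeR called 4930 and 2402, and 10 list genes against Ppy-only cells. With 23 cells in every sum, the calls fell to 1477, 1051 and 607 genes, and to 10, 11 and 5 list genes, against insulin-only, Sst-only and Ppy-only cells, with fewer cells and fewer genes tested. Leaving out 1 sum gave 3277 to 4056, 1558 to 1982 and 1237 to 1670 genes, and 20 to 24, 13 to 20 and 9 to 15 list genes. Of the named list genes called against insulin-only cells, 15 of 23 kept their call in all settings, those that lost it in at least 1 included Trf, Ednra, C1qc, Wnk1, Wnk4, Igfbp5 and Igfbp7, and C1qc ran from -7.56 to 0.86 with 1 sum left out, the latter without library 2 of the insulin-only cells. With the replicate block, the library as a block in the fit, 4752, 2251 and 2277 genes and 26, 21 and 18 list genes were called, and the block changed no call of a named gene. For tertiles of insulin share, 926 genes were called, against 420 with DESeq2, 1030 with the replicate block, 5533 scaled to the number of cells, 3855 scaled to all UMIs and 170 to 818 with 1 sum left out. There Ttr turned to -0.21 scaled to cells. C8b, which was not called, turned to -0.77 scaled to cells and -0.47 scaled to all UMIs. With 1 sum left out C8b ran from -0.41 to 0.64 (-0.083 without the lower sum of library 2). Gc and Wnk3 were called lower scaled to cells and to all UMIs. Under these scalings 5521 and 3802 of all 10351 genes were called lower, so nothing is read from the calls of these genes. Pappa2 was not called with cells cut into equal lower and upper parts (adjusted p = 0.209), nor without the lower sum of library 1 (0.0818).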
